A study of Mus musculus with 8 samples.

Results

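Sufu, the 3 Gli transcription factor genes and 6 genes whose products act directly on the Gli proteins or on Sufu were followed in the newborn mouse cerebellum. The 10 genes were taken by name from 24062 genes counted in each library: Sufu, Gli1, Gli2, Gli3, Kif7, Spop, Cul3, Prkaca, Gsk3b and Csnk1a1. Every one of them had counts in all 8 libraries and passed the filter on low counts, and the bin tables hold 133 exon bins for them. No bin of theirs sits in a group that joins several genes.

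The 4 mutants were Math1-Cre; Sufu flox/- pups and the 4 controls were littermates given as Sufu flox/+, all C57BL/6(mixed) and taken at postnatal day 2. Each library was made from the polyA RNA of 1 whole cerebellum. One parent was Math1-Cre; Sufu +/- and the other was homozygous for both Sufu flox and Math1 mgfp, so by the cross every pup, control or mutant, carried a floxed Sufu allele and a Math1 mgfp allele. The sources used here do not say if Cre was present in the controls, nor which exons the floxed segment spans. Math1 (Atoh1) regulatory sequence drives the Cre in the granule cell lineage, so the deletion was aimed at 1 part of the tissue, while the null allele was present in all cells of the mutants. In whole tissue, fewer cells of a type and less RNA per cell cannot be told apart.

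In the absence of a Hedgehog ligand, Sufu binds the Gli proteins, keeps them out of the nucleus and protects them from degradation. Protein kinase A, of which Prkaca encodes a catalytic subunit, primes Gli2 and Gli3 for phosphorylation by glycogen synthase kinase 3 (Gsk3b) and casein kinase 1 (Csnk1a1), which leads to their partial processing into repressors. Kif7 is a kinesin of the primary cilium that organizes the tip where Gli and Sufu gather, and Spop is the adaptor that brings full-length Gli2 and Gli3 to the Cul3 ubiquitin ligase. Gli2 is the main activator and Gli3 the main repressor, while Gli1 is an activator that is itself a transcriptional target of the pathway. In the cerebellum, Sonic hedgehog from Purkinje cells drives the division of granule cell precursors.

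Libraries held 21479565 to 26638284 counts in genes. Levels are given in CPM, counts scaled to library size with TMM factors, which compares libraries for 1 gene and not 1 gene with another. With edgeR's quasi-likelihood test, 0 of 15789 genes tested had an adjusted p at or under 0.05 (0% of genes). At an unadjusted p under 0.05 there were 1995 genes (12.6%), and DESeq2 called 52 of the 16062 genes to which it gave an adjusted p (0.324%). Below, "higher" and "lower" therefore describe levels and not calls, unless a test is named. All mutants stood above all controls in 3.6% of genes tested and below all controls in 2.96%. Mutant 4 stood apart: the mean of 10 Hox genes, expressed in brainstem, stood at -4.04 log2 units from the control mean, against -1.49 to 0.154 in the other mutants. Libraries titled with P (controls 1 and 2, mutants 1 and 2) and with R (controls 3 and 4, mutants 3 and 4) were also compared apart. The labels do not give the meaning of the letter.

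Sufu, the targeted gene, was lower in every mutant than in any control. Controls 1 to 4 held 47.7, 50.97, 55.9 and 60.7 CPM and mutants 1 to 4 held 31.7, 34.4, 36.8 and 39.8 CPM. The groups did not overlap, and the distance between the highest mutant and the lowest control was larger than the SD within either group (5.72 and 3.45 CPM, n = 4 each). The log2 fold change was -0.59 (SE 0.11), the fourth smallest p of the 15789 genes, with an edgeR adjusted p of 0.381 over all of them. DESeq2 called Sufu, with an adjusted p of 0.00121. Of the 10 genes, 1 (Sufu) lay wholly below the controls and 1 (Gli3) wholly above them.

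The start of Sufu is shown because the gene was targeted, and those of Gli2 and Gli3 because both stood higher in mutants. The sequences are RefSeq's for GRCm38.p6, which is not the build the submitters name, and run from 250 bases before the start to 50 after it, with the 50 bases from the start in capitals. Of the 10 genes, 8 had such a sequence; Gli1 and Csnk1a1 had none. Positions are chr19:46396646-46396945, plus strand, for Sufu, chr1:119053570-119053869, minus strand, for Gli2 and chr13:15463473-15463772, plus strand, for Gli3.
Sufu: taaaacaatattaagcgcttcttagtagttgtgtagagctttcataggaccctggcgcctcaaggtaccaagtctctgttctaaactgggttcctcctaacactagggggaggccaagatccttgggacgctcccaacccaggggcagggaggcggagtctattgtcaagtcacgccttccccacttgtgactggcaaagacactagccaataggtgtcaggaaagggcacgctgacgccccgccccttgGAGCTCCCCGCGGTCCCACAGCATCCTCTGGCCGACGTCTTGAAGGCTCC
Gli2: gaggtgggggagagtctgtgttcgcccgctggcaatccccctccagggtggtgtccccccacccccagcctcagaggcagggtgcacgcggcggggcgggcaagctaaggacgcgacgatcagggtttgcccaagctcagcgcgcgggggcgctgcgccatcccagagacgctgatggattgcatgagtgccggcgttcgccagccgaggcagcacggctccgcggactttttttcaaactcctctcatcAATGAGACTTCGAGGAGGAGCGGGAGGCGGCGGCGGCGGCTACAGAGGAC
Gli3: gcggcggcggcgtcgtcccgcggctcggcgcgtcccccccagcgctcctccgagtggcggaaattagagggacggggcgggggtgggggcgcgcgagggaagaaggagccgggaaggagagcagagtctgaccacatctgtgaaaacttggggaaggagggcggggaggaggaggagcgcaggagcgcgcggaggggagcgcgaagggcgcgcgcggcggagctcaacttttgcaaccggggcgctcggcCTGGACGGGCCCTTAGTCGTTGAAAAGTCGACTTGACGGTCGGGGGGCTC
GC content was 56.3% for Sufu, 67.3% for Gli2 and 71.0% for Gli3, with 12, 28 and 39 CpG pairs, against medians of 52.7% and 7 over 32851 sequences of the same length in the table. The 9-base Gli binding sequence GACCACCCA, searched on both strands, was in 0 of the 9 sequences held for the 8 genes and in 0.253% of all. Allowing any base at the fifth position (GACCNCCCA, which contains the first) gave 0 of 9, and 0.977% of all. This says only that these letters are not in these windows.

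**Figure D1:**
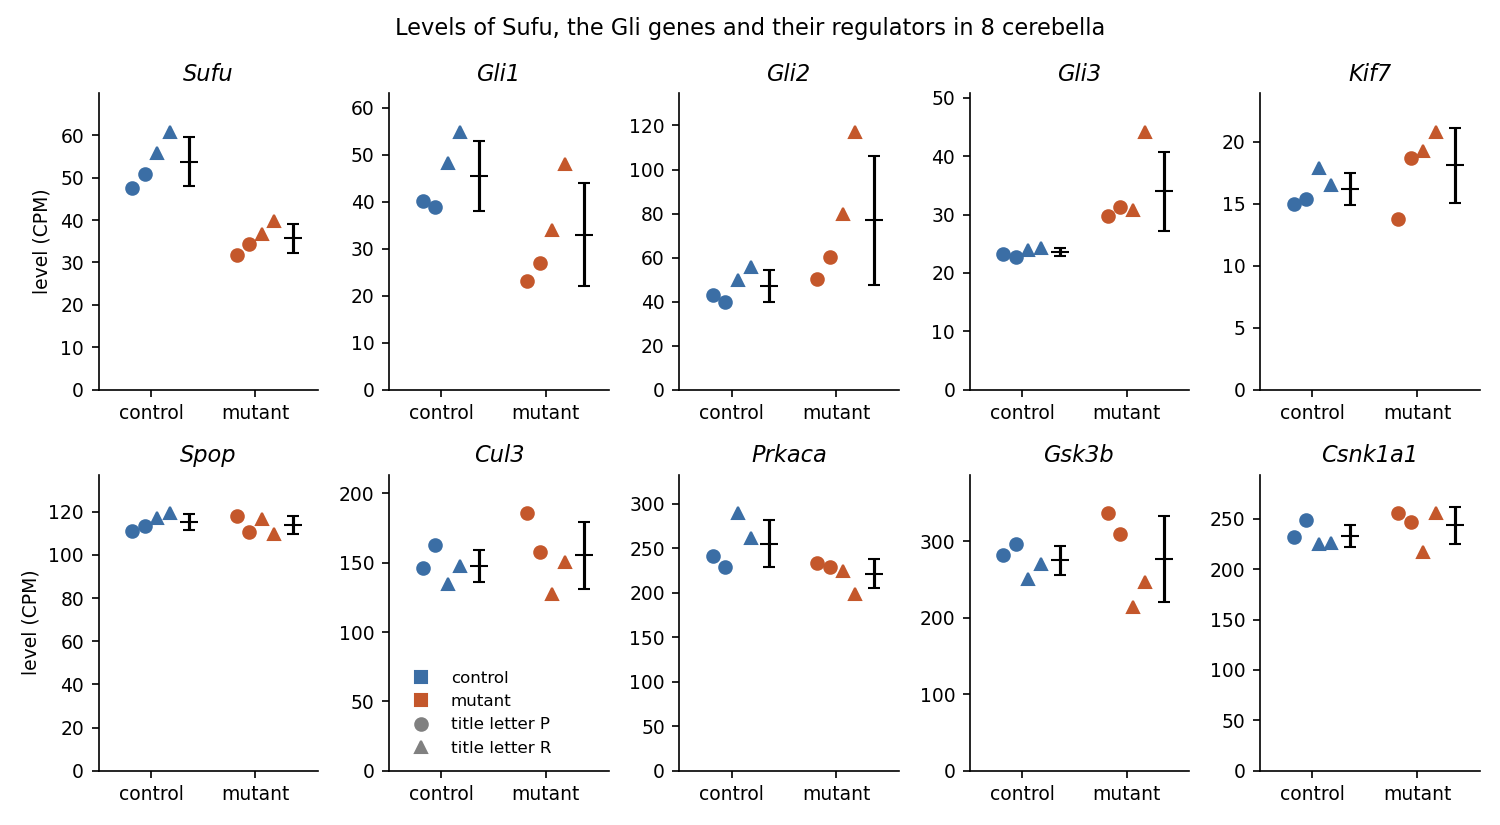
Levels in CPM of the 10 genes in each of the 4 control (blue) and 4 mutant (orange) libraries, with circles for title letter P and triangles for R; black bars give the mean and SD of each group, and every axis starts at 0. Sufu is lower in all 4 mutants and Gli3 higher in all 4, with 44.1 CPM in mutant 4, while the other 8 genes overlap between groups.

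The ratio of mutant to control level varied along Sufu, most between libraries in its 5′ part, and the test of unequal bin use did not hold under every setting. Sufu lies on chromosome 19, plus strand, in 13 bins. Bin numbers followed position along the chromosome as far as the counts show: the bin with the most counts was the last one in all 6 plus-strand genes of the 10 and the first one in all 4 minus-strand genes. All 13 Sufu bins were lower in every mutant than in any control, where 2.52% of the 153897 bins tested were. The bins of a gene are not independent of each other, and Sufu as a whole already lay wholly below the controls. Together the 13 bins held 1966 to 2018 counts in controls and 1006 to 1555 in mutants. Bins 4 to 9 stood in mutants 1 to 4 at 0.363, 0.481, 0.420 and 0.409 of the control mean. Bins 10 to 13 stood at 0.635, 0.675, 0.714 and 0.767 of it. Against this mean of all 4 controls, the mutants thus ran from 0.363 to 0.481 in the first stretch and from 0.635 to 0.767 in the second. Controls 1 to 4 themselves held 13.1, 12.9, 16.8 and 15.9 CPM in bins 4 to 9, higher in R than in P. The spread of the mutants there therefore depends on which controls are used. Bins 1 to 3 stood at 0.379 and 0.440 of the control mean in mutants 1 and 2, of letter P. In mutants 3 and 4, of letter R, they stood at 0.621 and 0.716 of it. Over those first bins the P mutants therefore lay near the level of their bins 4 to 9 and the R mutants near that of their bins 10 to 13; with 2 mutants a letter this difference was not tested.

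Bin 7, at 0.643 to 0.827 CPM in controls, had the lowest ratio of mutant to control mean, 0.368. Bin 13, which held the most counts, had the highest, 0.724. The share of Sufu bin counts that fell in bins 4 to 9 was 29.9, 28.0, 32.8 and 30.4% in controls 1 to 4. In mutants 1 to 4 it was 21.2, 24.9, 20.8 and 19.0%, so the groups did not overlap. This range of bins was taken from earlier results of these data. The difference of -8.83 percentage points is therefore a description, with no test. In the test of unequal bin use over 13351 genes, Sufu was 1 of 3 genes called by edgeR's gene-level F test (0.0225% of genes, adjusted p = 0.0418). By Simes' method it was not called (adjusted p = 1.0), where 1 gene was (0.00749%). Among 11 alternative settings, the F test still called Sufu in 5. Its adjusted p was 0.00155 when P and R libraries were blocked by letter. With library totals as the only scaling it was 0.0447. Without control 2, mutant 1 or mutant 2 it was 0.0481, 0.0141 and 0.0123. The F call ended without the filter on low counts (adjusted p = 0.0845). It also ended without control 1, 3 or 4 (adjusted p = 0.658, 1.0 and 0.670) and without mutant 3 or 4 (adjusted p = 0.296 and 0.396).

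For the level of single bins, edgeR called 0 of 153897 bins (0%), 14838 had an unadjusted p under 0.05 (9.64%), and the lowest adjusted p among Sufu bins was 0.123. With the title letter as a block 17 bins were called, 6 of them lower, and 5 of those 6 were Sufu bins. Without the filter on low counts 9 were called, and the 5 lower ones were all Sufu bins.

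**Figure D2:**
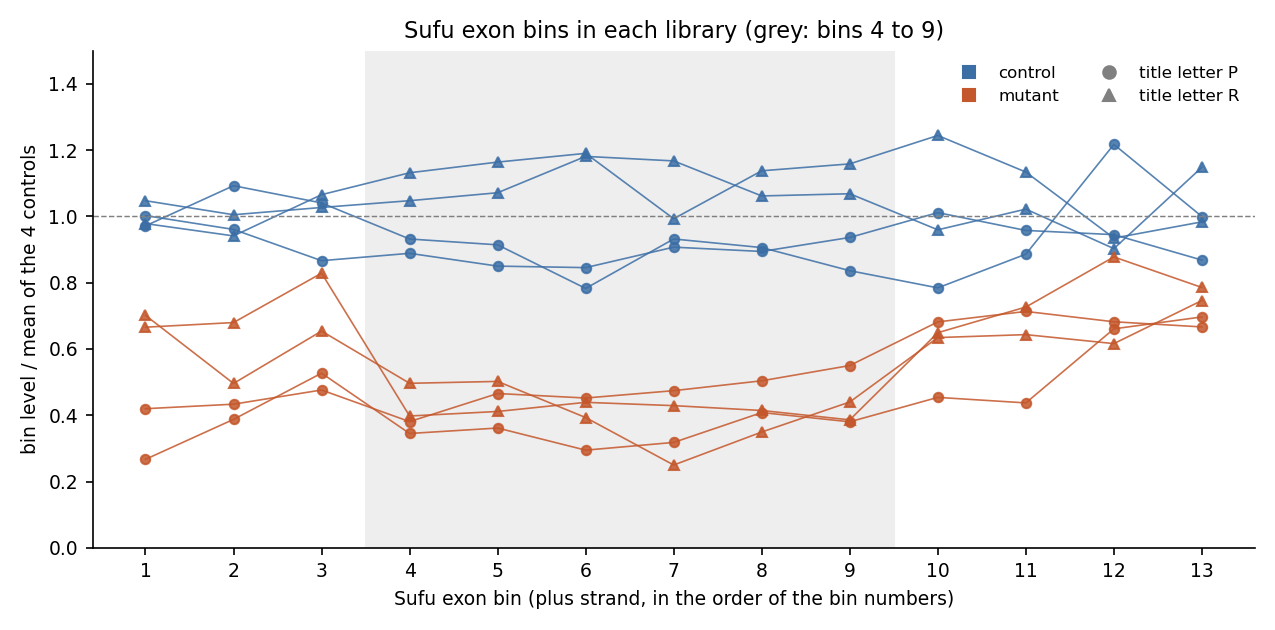
Level of each Sufu exon bin divided by the mean of the 4 controls, by bin number along the plus strand, with 1 line a library (blue controls, orange mutants, circles title letter P, triangles R). Summed over bins 4 to 9 (grey), the 4 mutants stand at 0.363 to 0.481 of the control mean, while single bins range wider. In bins 1 to 3 both R mutants lie above both P mutants.

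The Gli genes did not move together. Gli2 was higher in mutants, with 43.2, 39.7, 49.9 and 55.8 CPM in controls 1 to 4 and 50.3, 60.2, 80.0 and 117 CPM in mutants 1 to 4. Mutant 1 lay within the range of the controls, the other mutants above it and mutant 4 far above. The log2 fold change was 0.71 (SE 0.23, edgeR adjusted p = 0.381), and 0.43 without mutant 4. Gli2 lies on chromosome 1, minus strand, and all 14 of its bins had higher means in mutants, at 1.32 to 1.77 of the control mean. The lowest of those was bin 14, the 5′ end by the numbering.

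Gli3 was the steadiest of the 3 in controls and was higher in every mutant. Controls held 23.2, 22.7, 24.0 and 24.3 CPM and mutants 29.7, 31.4, 30.8 and 44.1 CPM. The groups did not overlap, and mutant 4 lay apart from the other mutants. The log2 fold change was 0.53 (SE 0.13), the 62nd smallest p over all genes (edgeR adjusted p = 0.381, DESeq2 adjusted p = 0.0750). Gli3 lies on chromosome 13, plus strand, and 14 of its 15 bins had higher means. In 5 of them all mutants lay above all controls, against 2.49% of bins tested, though these bins are likewise not independent of each other. Bins 1 and 2, the 5′ end by the numbering, stood at 0.931 and 1.12 of the control mean, below the other 13 bins at 1.21 to 1.79. Those first bins held 0.380 and 0.393 CPM in controls, and unequal bin use of Gli3 was not called (edgeR adjusted p = 1.0).

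Gli1 went the other way. Its levels were 40.2, 38.9, 48.1 and 54.8 CPM in controls and 23.1, 26.9, 34.0 and 47.9 CPM in mutants. Mutants 1 to 3 lay below every control, and mutant 4 within the controls' range. The log2 fold change was -0.46 (SE 0.21, edgeR adjusted p = 0.395, DESeq2 adjusted p = 0.317), and -0.70 without mutant 4. Gli1 lies on chromosome 10, minus strand, and all 13 of its bins had lower means, at 0.657 to 0.871 of the control mean.

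Within a library, Gli1 stood in a nearly fixed proportion to Gli2, and that proportion differed between genotypes. The ratio of Gli1 to Gli2 counts was 0.932, 0.979, 0.965 and 0.981 in controls 1 to 4. In mutants 1 to 4 it was 0.460, 0.447, 0.425 and 0.410. All mutants thus lay close together and far from all controls, including mutant 4, in which both genes were highest among the mutants. On the log2 scale, with 0.1 CPM added to each level, the ratio was -0.05 ± 0.03 (SD, n = 4) in controls and -1.20 ± 0.07 (SD, n = 4) in mutants. The difference of -1.15 corresponds to a ratio at 0.452 of that in controls. It was -1.07 among P libraries and -1.22 among R libraries, and -1.17 to -1.12 when each library was left out in turn. The two-sided exact permutation p was 0.0286, the lowest attainable with 4 against 4, or 0.0429 when adjusted over the 3 ratios between the Gli genes. The genes and tests were chosen with earlier results of these data known, so this p is a description and not independent evidence.

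Because Gli2 itself was higher in mutants, many genes were lower relative to it: of the 15788 other genes tested, 23.8% had a ratio to Gli2 that was below every control in all mutants, and 0.038% one that was above. The distance between the lowest control and the highest mutant was 1.02 log2 units for Gli1, the second largest of these 15788. The size of the difference was less extreme, at place 806 from the most negative. The ratio of Gli1 to Gli3 was also lower in every mutant, at 1.73, 1.71, 2.01 and 2.25 in controls and at 0.776, 0.859, 1.11 and 1.09 in mutants. Its log2 difference was -1.01. The exact permutation p, a description as for Gli1 to Gli2, was 0.0286, or 0.0429 when adjusted over the 3 ratios. For that ratio the distance between groups was 0.627 log2 units, place 43 among other genes, and the background was wider, since 51.6% of other genes lay below every control relative to Gli3 and 0.0317% above. The ratio of Gli2 to Gli3 overlapped between groups, with counts at 1.75 to 2.30 in controls and 1.69 to 2.65 in mutants (exact permutation p = 0.486, also when adjusted over the 3 ratios). It was higher in R than in P libraries of either genotype.

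**Figure D3:**
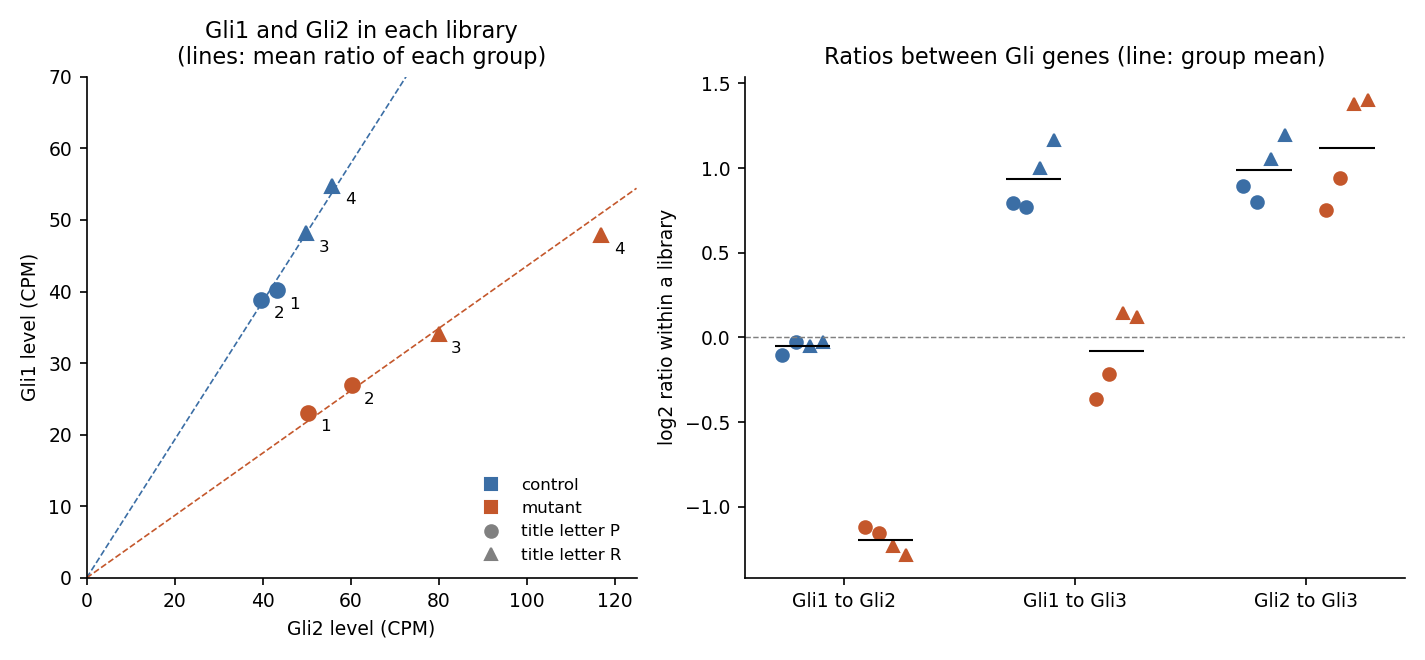
Left, Gli1 level against Gli2 level in CPM, 1 numbered point a library (blue controls, orange mutants, circles title letter P, triangles R), with dashed lines at the mean ratio of each group. Right, log2 ratios between the Gli genes in each library with the group mean as a line: the mutants lie on a line of their own at a Gli1 to Gli2 ratio of 0.410 to 0.460, against 0.932 to 0.981 in controls, while Gli2 to Gli3 overlaps.

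Markers of several cell types differed between the same libraries. All 11 granule cell lineage markers were detected, and 10 were higher in mutants, with Cntn2 (log2 fold change -0.01) the exception. The 11 markers summed to 1441 to 1747 CPM in controls and to 1514, 1863, 2056 and 2814 CPM in mutants 1 to 4, and Gli1 and Gli2 ranked the 4 mutants alike. All 10 markers of dividing cells were higher, summing to 917 to 1058 CPM in controls and 1113 to 1933 CPM in mutants. All 14 brainstem markers were lower, at 141 to 219 CPM in controls and 9.55 to 179 CPM in mutants, and 8 of 9 oligodendrocyte markers were lower, at 1246 to 1873 and 644 to 1245 CPM. Choroid plexus markers were higher in 9 of 10, at 1562 to 3572 and 3868 to 6502 CPM. Most of these sums was Ttr alone, at 1248 to 2956 CPM in controls and 3198 to 5673 CPM in mutants. All 8 Purkinje cell markers were higher, at 506 to 908 and 750 to 1122 CPM. Bergmann glia and astroglia markers, 6 of 9 higher, summed to 3044 to 3583 and 2769 to 3553 CPM, mostly from Slc1a3 and Fabp7. The lower ones were Gfap, Aqp4 and Fabp7, with log2 fold changes of -0.95, -0.51 and -0.29. Endothelial markers were higher in 6 of 6, at 203 to 263 and 217 to 331 CPM, microglial markers lower in 7 of 7, at 134 to 204 and 101 to 164 CPM, and meningeal markers lower in 4 of 6, at 471 to 817 and 504 to 651 CPM. No marker of any of these lists was at 0 in all libraries of a group. Their part in the differences of Sufu and the Gli genes was not tested. With the Hox genes as a covariate, log2 fold changes were -0.66 for Sufu, -0.77 for Gli1, 0.33 for Gli2 and 0.32 for Gli3, so that Gli1 lay farther from 0 and Gli2 and Gli3 nearer. This covariate mostly sets mutant 4 apart, at -4.04 log2 units against -1.49 to 0.454 in all other libraries. Leaving out mutant 4 instead gave -0.65 for Sufu, -0.70 for Gli1, 0.43 for Gli2 and 0.37 for Gli3. The Hox covariate also brought Prkaca to -0.099 and Kif7 to 0.029. With Xist, a gene expressed in females, as the covariate, Gli1 stood at -0.69, Gli2 at 0.44, Gli3 at 0.35 and Kif7 at 0.021. The SE of Sufu was 0.14 with Xist, against 0.11 with no covariate. Xist levels are not printed here, so how far this covariate overlaps with genotype is not shown. None of these passed with either covariate (edgeR, adjusted p = 1.0).

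The kinase genes that prime or phosphorylate Gli proteins showed small differences. Prkaca, on chromosome 8, plus strand, held 241, 228, 289 and 261 CPM in controls and 233, 229, 225 and 198 CPM in mutants. The groups overlapped only between mutants 1 and 2 and control 2, and mutant 4 was lowest of all libraries. Its log2 fold change was -0.20 (SE 0.10, edgeR adjusted p = 0.416), made up of -0.02 within P and -0.38 within R. The test of that difference between letters did not pass (interaction, edgeR adjusted p = 0.172, where 3.2% of genes passed). All 10 tested Prkaca bins had lower means, at 0.799 to 0.927 of the controls. In 5 of them every mutant was lower than any control, against 2.52% of bins tested. Bins of 1 gene are not independent of each other. Bin 2, with a control mean of 0.0430 CPM, was too low to be tested.

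Gsk3b, on chromosome 16, plus strand, held 283, 297, 251 and 270 CPM in controls and 337, 310, 214 and 248 CPM in mutants. Both P mutants lay above and both R mutants below every control, so that the mutant spread (SD 56.3 CPM) was wider than that of controls (SD 19.6 CPM, n = 4 each). The fold change was 0.16 within P, -0.17 within R and 0.01 (SE 0.14) over all, on the log2 scale. The difference between letters did not pass (interaction, edgeR adjusted p = 0.212). Csnk1a1, on chromosome 18, plus strand, held 225 to 249 CPM in controls and 217 to 256 CPM in mutants. Its log2 fold change was 0.07 (SE 0.09). The 10 bins of Csnk1a1 stood at 0.980 to 1.08 of the control mean.

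The ubiquitin ligase genes and Kif7 overlapped between groups as well. Spop, on chromosome 11, plus strand, was the most even of the 10 genes, at 111 to 119 CPM in controls and 110 to 118 CPM in mutants. Its log2 fold change was -0.02 (SE 0.08), and its 11 bins stood at 0.879 to 1.04. Cul3, on chromosome 1, minus strand, held 146, 163, 135 and 148 CPM in controls and 186, 158, 127 and 150 CPM in mutants. The fold change of Cul3 was 0.07 (SE 0.12) on the log2 scale, and its 16 bins stood at 0.975 to 1.10.

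Kif7 had the fewest counts of the 10 genes, 315 to 559 per library. On chromosome 7, minus strand, it held 14.9, 15.4, 17.9 and 16.5 CPM in controls and 13.8, 18.7, 19.2 and 20.8 CPM in mutants. Mutants 2 to 4 lay above every control and mutant 1 below, with a log2 fold change of 0.16 (SE 0.14, edgeR adjusted p = 0.599). Of its 19 bins, 12 had higher and 7 lower means, from 0.716 for bin 12 to 1.45 for bin 6. None of the 19 was free of overlap, and unequal bin use was not called (edgeR gene-level F test, adjusted p = 1.0).

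**Figure D4:**
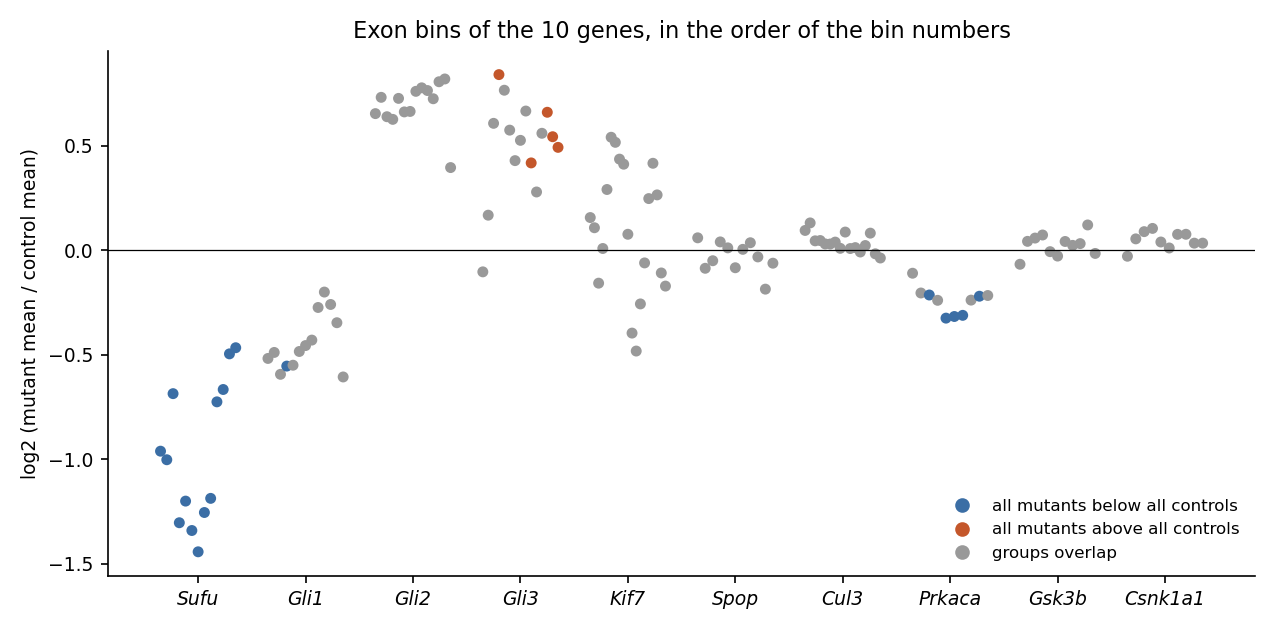
Log2 ratio of the mutant mean to the control mean for each of the 132 tested exon bins of the 10 genes, in the order of the bin numbers; colour marks bins in which the 4 mutants lie wholly below (blue) or above (orange) the 4 controls. All 13 Sufu bins are blue, the Gli1 bins lie below 0 and the Gli2 bins above it, and the bins of Spop, Cul3, Gsk3b and Csnk1a1 lie near 0.

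Between title letters the direction held for the genes with the largest differences. Sufu stood at -0.58 within P and -0.61 within R, Gli3 at 0.41 and 0.63, Gli2 at 0.42 and 0.90, and Gli1 at -0.66 and -0.33, all as log2 fold changes. The difference between letters passed for none of the 10 genes (interaction, edgeR adjusted p of 0.172 to 0.984), while 505 of 15789 genes passed. Spop, Cul3 and Gsk3b had opposite signs in the 2 letters.

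**Figure D5:**
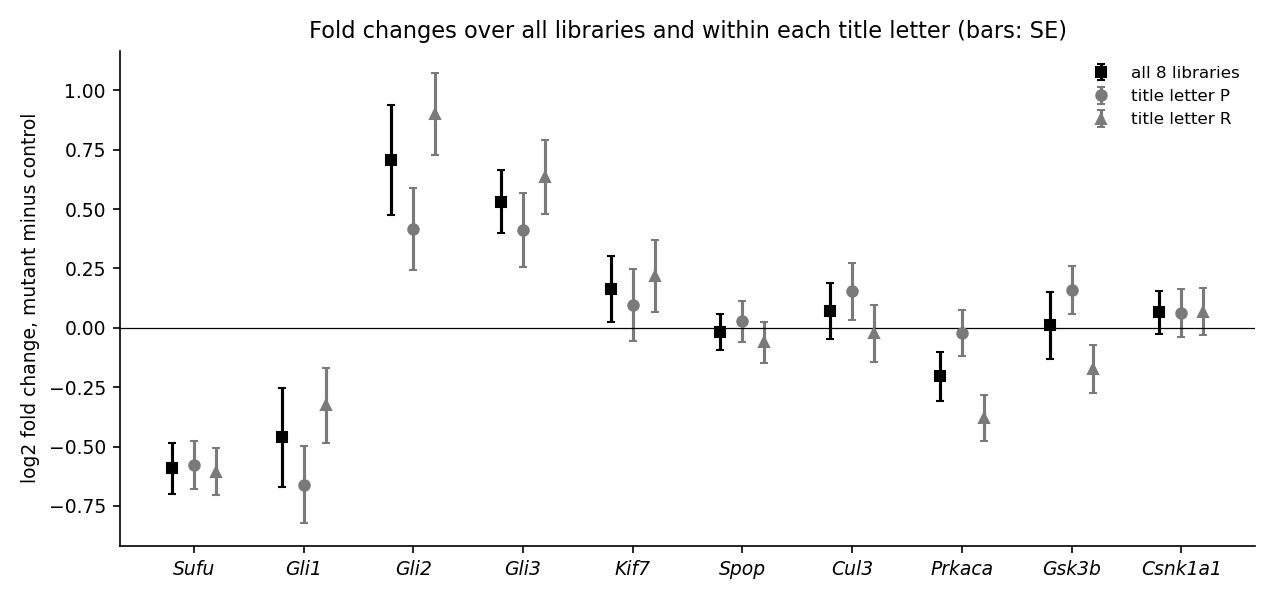
Log2 fold change of mutant against control for the 10 genes, over all 8 libraries (black squares) and within title letter P (circles) and R (triangles), with SE bars from edgeR. Sufu, at -0.58 within P and -0.61 within R, varied least among the 4 genes farthest from 0.

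The rest of the pathway was read from 67 other genes, of which 66 were tested. Of these, 46 had a log2 fold change above 0 and 20 below it, with a median of 0.09, against 8254 and 7535 of all genes tested and a median of 0.01; 0 passed (edgeR, over all genes). Of the 66 genes, 5 lay wholly above the controls and 1 wholly below, against 3.6% and 2.96% of all genes tested. Among ligands, receptors and membrane regulators 18 of 20 were higher. Boc, a co-receptor, had a log2 fold change of 0.57 (SE 0.18), whereas Dhh, a ligand with 0.186 to 1.33 CPM in any library, stood at -0.98 (SE 0.48).

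Among Gli target genes 11 of 13 were higher, with a median log2 fold change of 0.25, so that Gli1 at -0.46 lay below each of the 13. Cdk6, a cell cycle kinase, stood at 4.48 to 5.11 CPM in controls and 5.60 to 9.22 CPM in mutants, without overlap. The lowest was Igfbp3, a binding protein of insulin-like growth factors, at -0.28 (SE 0.14). This list is largely one that earlier results of these data had used, so its direction is not independent of them.

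Of 17 kinase and cAMP signalling genes, 8 were higher and 9 lower, with a median of -0.05. Prkar1b, a regulatory subunit of protein kinase A, had the lowest fold change, with 225 to 314 CPM in controls and 92.1 to 236 CPM in mutants. Mutant 4 held the 92.1 CPM. Csnk1g1, a casein kinase, was the highest, with a log2 fold change of 0.21 (SE 0.11). Of 9 ubiquitin ligase parts, 5 were higher and 4 lower. Btrc, the adaptor that recognizes phosphorylated Gli2 and Gli3, stood at -0.26 (SE 0.10). Numb, an adaptor that brings Gli1 to the ligase Itch, stood at 0.32 (SE 0.12) with no overlap between groups, and Itch itself at 0.19 (SE 0.11). Rbx1, of the same list, was lower without overlap, at 118 to 121 CPM in controls and 104 to 116 CPM in mutants. Of 10 cilium genes, 7 were higher. Tulp3, which carries receptors into the cilium, was 34.0 to 35.2 CPM in controls and 38.5 to 48.4 CPM in mutants, without overlap.

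The genes most like Sufu and the Gli genes over the 8 libraries were taken by Pearson r of log2 CPM among 12526 genes with a mean of at least 5 CPM, as a description with no test. For Gli2 they were Pa2g4, Espl1, the protease that separates sister chromatids, and Chaf1a, a chromatin assembly factor subunit (r = 0.996, 0.996 and 0.994). For Gli3 they were Dhx33, a helicase, Parp2, an enzyme of DNA repair, and Pole, the catalytic subunit of a replicative DNA polymerase (r = 0.996, 0.994 and 0.993). Each of these genes, like Gli2 and Gli3, was highest in mutant 4, so that 1 library weighs heavily in r. Dhx33 held 84.4 CPM there and 61.2 to 64.5 CPM in the other mutants, and Pole 72.7 CPM against 48.5 to 50.1 CPM. Likeness was lower for Sufu, with Pcdha5, Dctd and Mrpl10 (r = 0.927, 0.904 and 0.900), and for Gli1, with Mrpl55, Lxn and Tbata (r = 0.926, 0.918 and 0.898). The Pcdha genes share 3′ exons, so counts of Pcdha5 are uncertain.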

How the data were processed

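Each of the 8 libraries came with 2 deposited tables of raw counts, 1 per gene (24062 genes) and 1 per exon bin (219958 bins), which the authors had not normalized. The submitters' processing notes name TopHat, HTSeq, DESeq2 and mm9, without versions. Annotation and strand setting are not given in the sources used here. Summary lines (5 and 4 per table), which held 24.8 to 34.3% of gene table entries, were left out. A read can be counted in several bins.

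Tests on genes and bins used edgeR 4.0.16 under R 4.3.3 (filterByExpr, TMM, robust quasi-likelihood F test, two-sided, genotype as the only term), with p-values adjusted by Benjamini-Hochberg over all genes or bins. Each standard error is the size of the fold change over the root of F. Unequal bin use was tested with diffSpliceDGE. DESeq2 1.42.0 was an alternative, as were other scalings and filters, the title letter as a block, Hox (10 genes) or Xist covariates and leaving out each library. The steps were tested on simulated counts. Libraries within a group differed by 7.42 to 81.0 chi-square per degree of freedom, so none was a copy. The pups were collected individually, per the labels' protocols. Ratios were compared by exact permutation in scipy 1.17.1.

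The 10 genes, the lists, the bin range and the tests were chosen with earlier results of these data known. Named were all 10 genes, the extreme members of each pathway list and the 3 genes most like each of Sufu and the Gli genes. Not every gene so taken is printed.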

Additional observations from a re-analysis of the deposited data

Results flagged for a closer look

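Among 28 sets of 4 libraries checked for a value apart (10 genes, 3 ratios and the Sufu bin share, in each group), 1 held one: Gli3 was 44.1 CPM in mutant 4 and 29.7 to 31.4 CPM in the other mutants. The gap to the nearest mutant was 0.888 of the range, above Dixon's critical value for 4 samples. Chance alone gives such a gap in about 1 in 20 sets. In the same library the brainstem markers summed to 9.55 CPM and the granule cell lineage markers to 2814 CPM, the lowest and highest of all 8 libraries, and their part in the Gli3 value was not tested. Without mutant 4 the log2 fold change of Gli3 was 0.37.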

How the results depend on the processing

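Sufu, Gli1, Gli2, Gli3, Kif7, Prkaca and Csnk1a1 kept their direction under all 16 alternatives, of which DESeq2 called Sufu (-0.60). With 1 library left out, log2 fold changes ran from -0.65 to -0.53 for Sufu, -0.70 to -0.33 for Gli1, 0.43 to 0.86 for Gli2 and 0.37 to 0.58 for Gli3. Kif7 stood at 0.085 without mutant 4 and 0.26 without mutant 1. Csnk1a1 ran from 0.032 (without mutant 1; 0.038 and 0.037 without mutants 2 and 4) to 0.12 (without mutant 3), and was 0.026 and 0.025 with the Hox and Xist covariates. Values near 0 changed sign: Spop with the Hox or Xist covariate (0.025 and 0.024), Gsk3b with at least 1 CPM in 4 libraries or the letter block (-0.0060 and -0.0075) and, with 1 library left out, Gsk3b (-0.11 to 0.12) and Cul3 (-0.035 to 0.16). The count of genes called, 0, was 52 with DESeq2 and 0 to 1 with 1 library left out (1 without mutant 1). The count of bins, 0, was 9 without the filter, 17 with the letter block and 0 to 38 with 1 library left out (38 without control 2, 7 without mutant 1, 6 without mutant 4). Genes with unequal bin use by Simes' method numbered 1, and 1 to 2 with 1 library left out. The 3 Gli ratios and the Sufu bin share kept their direction. Left-out libraries gave -1.09 to -0.92 for Gli1 to Gli3, 0.037 to 0.25 for Gli2 to Gli3 and -9.96 to -7.98 percentage points for the share; 4 against 3 libraries cannot give an exact p below 0.0571. No pairing of the libraries could be made because their labels give no shared replicate numbers. Counts of 315 to 559 per library limit Kif7 most.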
